A study of Neurospora crassa with 24 samples.

Results

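Of the 9758 genes in the table of counts of Neurospora crassa, 70 had abundant mRNA in wild-type mycelia kept submerged and dark for 24 h and little of it in dark wild-type aerial tissue. They were chosen by these levels alone. A member had a mean of at least 20 CPM (the count of a gene scaled to a library total of 1e+06) in the 4 submerged libraries, a level reached by 3986 genes, and a mean in the 2 dark aerial libraries of at most 1/6 of it. Both groups that chose the members are therefore given as a description, without a test. The mRNAs were low in aerial tissue rather than absent. Each of the 70 genes was above the detection floor, set at 3 counts, in both dark wild-type aerial libraries, and the lowest count there was 8, for cyp450-13.

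When mycelia of this fungus meet air, hyphae grow away from the wet surface and form chains of orange asexual spores, the conidia. Submerged hyphae live on dissolved sugar and nitrogen salts, with enzymes of glycolysis and nitrate assimilation and the synthesis of vitamins and sterols, while conidiating hyphae coat themselves with a hydrophobin and switch on conidiation genes such as the con genes. VE-1 is a subunit of the velvet complex, a group of nuclear regulators of fungal development and secondary metabolism that respond to light.

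The study measured mRNA by RNA-seq in the Δve-1 mutant and the wild type, both of the OR74A background, to ask what the loss of VE-1 changes during vegetative growth and conidiation. Aerial tissue (A15) was collected 15 h after mycelia were moved onto solid medium, in the light (the last 30 min) or in the dark, with 2 libraries for each strain and condition. Vegetative mycelia grown submerged for 48 h (V) gave 2 libraries per strain in the light (again the last 30 min) and 2 in the dark, and mycelia submerged for 24 h (S), always dark, gave 4 per strain. All cultures grew in Vogel's medium, and the mutant carried the ve-1 deletion of the knockout collection. Replicates are named by the number in their labels. The labels do not say that replicates came from separate cultures, so P values measure only the spread between these libraries.

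The 24 libraries held 14010994 to 21885041 counts, so that 3 counts were worth 0.137 to 0.214 CPM. The deleted gene, ve-1, had 0.883 to 12.7 CPM in the mutant libraries against 66.1 to 283 CPM in the wild type, and the highest mutant value was that of S replicate 1. That library correlated with the other mutant S libraries at r = 0.886 to 0.944 over log CPM, against 0.959 to 0.978 among the other 3 mutant libraries. The wild-type S libraries formed pairs, with r = 0.990 between replicates 1 and 2, 0.972 between 3 and 4, and 0.930 to 0.946 across the pairs. The mutant dark A15 pair correlated at 0.895 and the wild-type light A15 pair at 0.929, while the pairs of V correlated at 0.986 to 0.994. The labels name no batch for these differences. Of the aerial marker genes, the hydrophobin gene eas had 40721 to 173634 CPM in A15, 25.0 to 451 CPM in S and at most 0.575 CPM in V. The summed level of all 6 markers (eas, con-6, con-8, con-10, con-13 and fl) was 52775 to 181351 CPM in A15, against 50.5 to 476 CPM in S, 568 to 1470 CPM in light V and 17.2 to 26.1 CPM in dark V.

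The 70 genes took a small share of the counts of aerial tissue and a large one of submerged mycelia, as their choice requires in the dark wild type. They held 0.570 and 0.709% of the counts of the wild-type dark A15 libraries against 4.76, 5.73, 11.5 and 11.6% of the wild-type S libraries. The median member had 23.1 CPM in A15 and 265 CPM in S. The ratio of S to A15 had a median of 9.86 over the members and ran from 6.05 to 89.6, and 17 genes were over 20-fold. All 70 had both A15 libraries below every S library, which 21.5% of the genes at 20 CPM or more did, and the rule itself asks for such a gap. Just inside the threshold were ace-8 at 6.25-fold (323 CPM in A15, 2018 CPM in S), NCU07110 at 6.14-fold and emp-3 at 6.05-fold, and just outside it were NCU02623 at 5.95-fold, NCU16402 at 5.77-fold and NCU04097 at 5.75-fold. In bulk tissue, fewer cells of a type and less RNA per cell cannot be told apart.

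**Figure D1:**
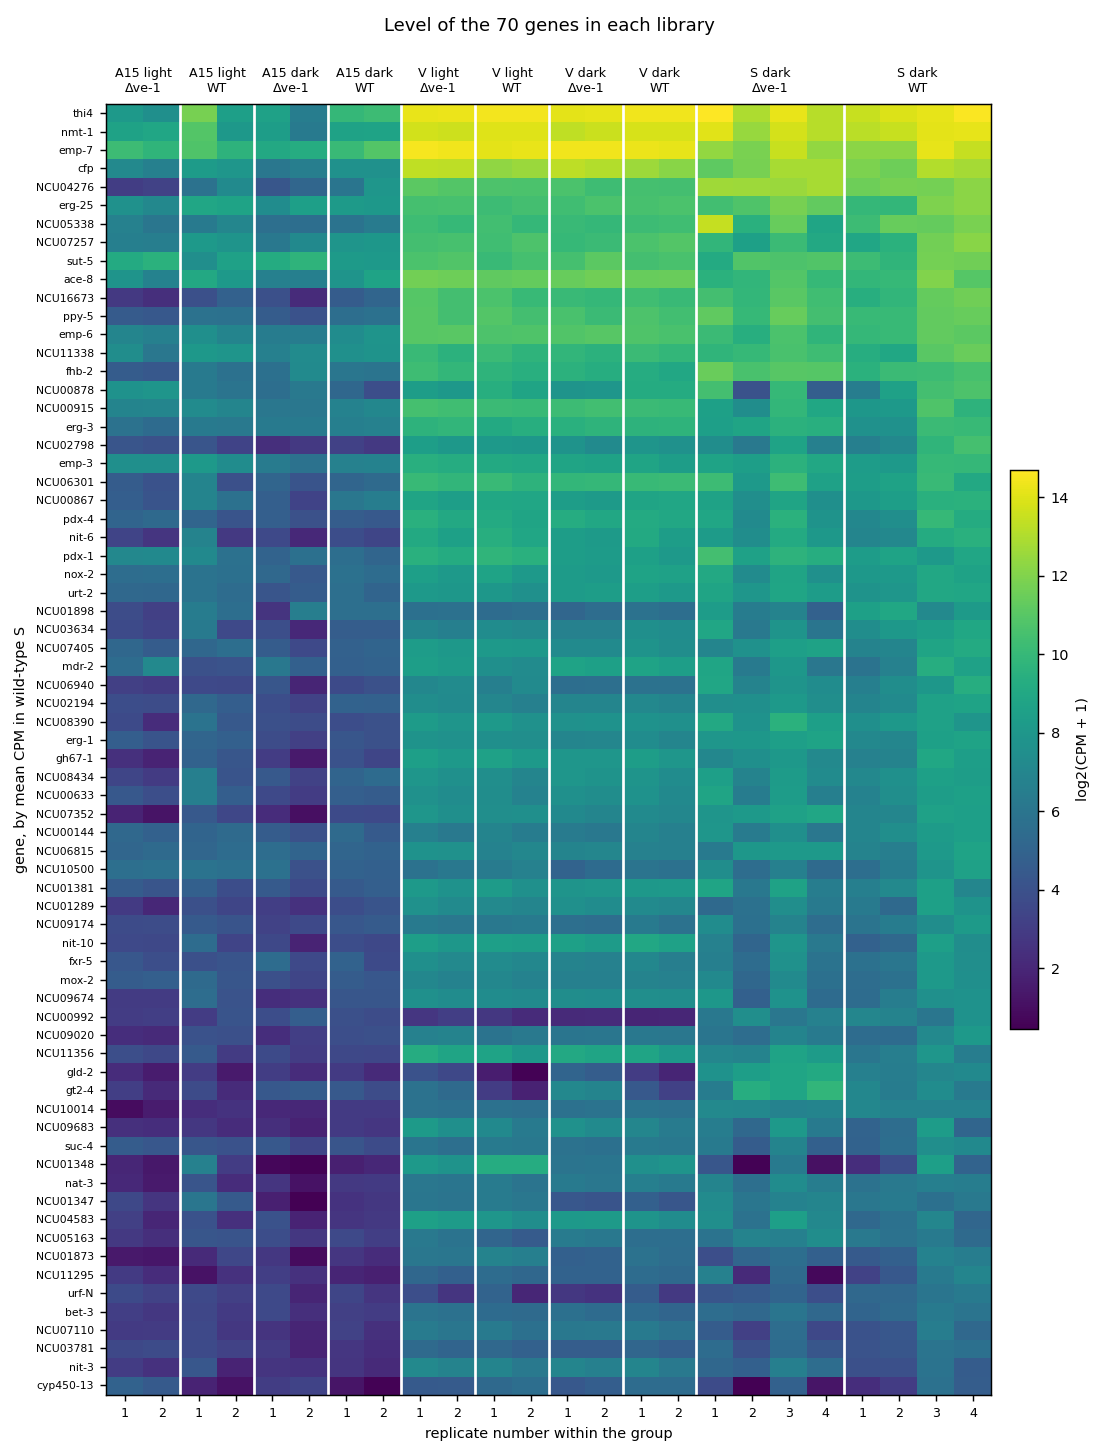
Heat map of the level of the 70 genes, 1 row per gene in the order of mean CPM in wild-type S, and 1 column per library, with the groups from A15 to V to S, as log2(CPM + 1). The A15 columns are darker than those of V and S for most genes, and NCU00992, gld-2 and gt2-4 stand out as dark in wild-type V also.

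The members with the most counts make thiamine. The thiazole part of the vitamin is made by the product of thi4 (NCU06110, chromosome VII: 1764461 to 1767138, NC12 assembly, minus strand), which had 989 and 1204 CPM in wild-type dark A15 against 11561, 15807, 18411 and 25024 CPM in wild-type S. The pyrimidine part is made by nmt-1 (NCU09345, chromosome II: 4177546 to 4180504, plus strand), with 399 and 427 CPM in A15 against 9530, 11694, 17363 and 18565 CPM in S. The lowest S library of each gene was above its highest A15 library. Vitamin B6 is made by pdx-1, with 47.8 and 33.1 CPM in A15 against 321, 419, 288 and 479 CPM in S, and by the oxidase pdx-4, with 24.3 and 20.7 CPM in A15 against 133, 178, 1011 and 600 CPM in S. Replicates 3 and 4 of S were both high for pdx-4, while for pdx-1 replicate 4 was the highest and replicate 3 the lowest.

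Of glycolysis and fermentation, the members were 4 enzymes of the lower and upper pathway and the pyruvate decarboxylase that opens the route to ethanol. Enolase, emp-7 (NCU10042, chromosome I: 5945167 to 5948228, plus strand), had 1091 and 1856 CPM in wild-type dark A15 against 4708, 4796, 18321 and 11134 CPM in wild-type S. The decarboxylase gene cfp (NCU02193, chromosome VII: 3384904 to 3387654, plus strand) had 198 and 203 CPM in A15 against 3842, 2958, 8594 and 7025 CPM in S. In both genes S replicates 3 and 4 were the high ones and every S library was above both of A15. Phosphofructokinase (emp-3), phosphoglycerate mutase (emp-6) and pyruvate kinase (ace-8) had means of 106, 196 and 323 CPM in A15 against 642, 1685 and 2018 CPM in S. The 4 genes with the most counts, thi4, nmt-1, emp-7 and cfp, made up 56.3% of the summed CPM of the members in wild-type S. CPM values are not corrected for gene length.

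Nitrate enters through the transporter nit-10 and is reduced in turn by nitrate reductase (nit-3) and nitrite reductase (nit-6). In wild-type dark A15, nit-6 had 13.3 and 9.78 CPM against 122, 134, 590 and 721 CPM in wild-type S. The transporter nit-10 had 13.4 and 10.8 CPM in A15 against 28.2, 38.3, 354 and 172 CPM in S, and nit-3 had 5.31 and 3.41 CPM in A15 against 14.4, 14.1, 58.5 and 23.0 CPM in S. All 3 were higher in S replicates 3 and 4 than in 1 and 2. Other members with nitrogen or oxygen as substrates were the urea transporter urt-2, the flavohemoglobin fhb-2, of a family that detoxifies nitric oxide, and nox-2, an NADPH oxidase that makes superoxide. Their means were 41.3, 63.1 and 49.1 CPM in A15 against 359, 1143 and 362 CPM in S.

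Ergosterol, the main sterol of fungal membranes, was represented by squalene monooxygenase (erg-1, NCU08280), methylsterol monooxygenase (erg-25, NCU06402) and C-5 sterol desaturase (erg-3, NCU06207). Their means were 16.5, 277 and 101 CPM in wild-type dark A15 against 265, 2661 and 651 CPM in wild-type S. NCU04156 and NCU08762 share the names erg-1 and erg-3 and were not members. These names stand here for NCU08280 and NCU06207 only. Further named members were ppy-5, annotated as a porphyrin gene (50.3 CPM in A15 against 1813 CPM in S), the sugar transporter sut-5 (288 against 2140 CPM) and the glucose dehydrogenase gld-2 (4.89 against 116 CPM). NCU07257, an F-box protein gene, had 246 CPM in A15 against 2241 CPM in S. Of the 70 genes, 31 have a gene name. Several without a name stood among the largest ratios, namely NCU02798 at 89.6-fold, NCU16673 at 64.0-fold, NCU01348 at 38.0-fold, NCU05338 and NCU00878 at 35.9-fold each, and NCU04276 at 24.2-fold. NCU04276, whose product is not known, had 62.3 and 244 CPM in A15 against 3034, 3572, 3386 and 4838 CPM in S.

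The 4 submerged wild-type libraries differed widely in these genes. The coefficient of variation over them had a median of 64.1% among the members, beside 25.4% among all genes at 20 CPM or more. The highest library was over the lowest by a median of 3.83-fold (1.77-fold for genes at the level), and by more than 4-fold in 32 members. The median member had 119, 137, 371 and 382 CPM in replicates 1 to 4. In 56 members both replicates 3 and 4 were above both 1 and 2, a pattern that 22.3% of the genes at the level had, and replicate 1 was the lowest in 50 members (17.4% of the genes at the level). The ratio of the mean of replicates 3 and 4 to that of 1 and 2 had a median of 3.04, against 0.872 for genes at the level. All of these libraries carry the same label but for their number, and these replicate means took part in choosing the members. The summed aerial markers were 104, 186, 55.5 and 106 CPM in the same libraries, and their part in the split was not tested.

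The members ranged from steady to very uneven. NCU10014, with 131, 108, 110 and 106 CPM over the wild-type S libraries, had the smallest coefficient of variation (9.95%), followed by NCU01347 (17.4%), NCU04276 (21.2%) and gld-2 (21.7%). At the other end were NCU01348 (168%), NCU09683 (132%), nit-10 (103%) and the cytochrome P450 gene cyp450-13 (102%). NCU01348 had 4.10, 13, 355 and 31.2 CPM, an 86.5-fold range. With replicates 1 and 2 alone, the median coefficient of variation was 18.6%, and with 3 and 4 alone it was 23.8%.

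Which genes met the rule depended on these libraries. With S replicates 1 and 2 only, 36 genes met it, 31 of them members, and the median fold over A15 of the 70 was 5.56. With replicates 3 and 4 only, 97 genes met it, 69 of them members. In the mutant, whose libraries did not choose the genes, the coefficient of variation over the 4 S libraries had a median of 52.2% for the members and 34.0% for genes at the level. There the median member had 247, 147, 360 and 168 CPM in replicates 1 to 4, and 42 members had replicates 1 and 3 above 2 and 4 (22% of genes at the level). Replicate 3 was the highest in 39 members and replicate 2 the lowest in 41 (14% and 17.5% of genes at the level). The summed aerial markers were 160, 476, 50.5 and 83.5 CPM in these libraries, and their part was not tested.

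**Figure D2:**
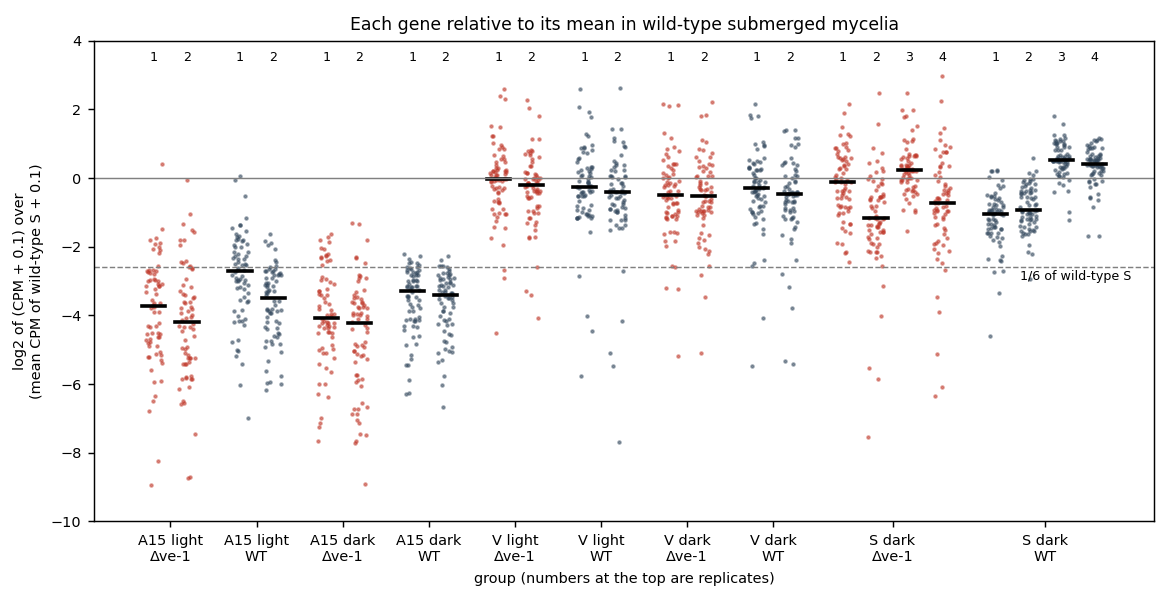
Each gene (point) in every library, as log2 of its CPM over its mean CPM in wild-type S after adding 0.1 to both, with the library median as a bar, Δve-1 in red, the wild type in blue-grey and a dashed line at 1/6. The medians of the A15 libraries lie under those of every V and S library, and wild-type S replicates 1 and 2 lie under replicates 3 and 4.

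In 48 h mycelia most of the genes were within 2-fold of their level in S, but they kept 1/2 of it less often than genes at the level. The ratio of wild-type dark V to wild-type S had a median of 0.765 over the members, beside 0.898 for genes at the level. V was at or above 1/2 of S in 53 of the 70 members, a smaller share than the 90% of genes at the level. It was within 2-fold of S in 48 members and above it in 22, without a count over genes at the level. Both V libraries were above both wild-type dark A15 libraries in 65 members (27.4% of genes at the level), and the median fold of V over A15 was 8.57. With S replicates 1 and 2 only, the median ratio of V to S was 1.57. These ratios rest on groups that chose the members and are not tested.

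Of the nitrate genes, nit-3 and nit-10 were among those higher in V. For nit-6, wild-type dark V had 551 and 335 CPM, within the 122 to 721 CPM of wild-type S. The ratio to S was 3.56 for nit-3 and 3.0 for nit-10, with 123 and 73.4 CPM for nit-3 and 503 and 386 CPM for nit-10 in wild-type dark V. NCU04583, annotated as an acetyltransferase (3.08), NCU11356, of the PhzC/PhzF family (2.91), and NCU01348 (2.08) completed the 5 highest. For nit-3 both V libraries were above every S library, and for nit-10 as well.

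A few genes were low in V as in A15. Their ratios of V to S were 0.0222 for NCU00992, 0.0415 for gld-2, 0.126 for gt2-4 and 0.157 for NCU01898, all under 1/6, and 0.191 for NCU06940. NCU00992 had 2.83 and 2.92 CPM in wild-type dark V against 125, 114, 65.2 and 212 CPM in wild-type S, and gld-2 (chromosome III: 4699410 to 4702749, plus strand) had 6.82 and 2.80 CPM in V against 102, 89.9, 125 and 146 CPM in S. For both genes V was below every S library. The genes gld-2 and gt2-4 are near neighbours on chromosome III, where gt2-4 runs from 4693312 to 4696488 on the minus strand.

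The difference between V and S was tested in the mutant, which took no part in the choice. By the quasi-likelihood test of edgeR with Benjamini-Hochberg adjustment, 7 members fell in dark Δve-1 V against Δve-1 S at an adjusted P under 0.05 and none rose, against 2.77% of all genes tested that fell and 4.71% that rose. None passed the stricter call used here for a DEG (an absolute log2FC of at least 2 and an adjusted P under 0.001), and the unadjusted P was under 0.05 for 16 (26% of genes). The genes were NCU00992 (log2FC = -4.98, adjusted P = 0.0015), gld-2 (-3.85, 0.0015), NCU04276 (-2.29, 0.00225), NCU01347 (-2.82, 0.00362), NCU10014 (-1.33, 0.012), fhb-2 (-1.68, 0.0294) and urf-N (-2.12, 0.0464). NCU00992 and gld-2 passed the test in every fit that left out 1 library. The count was 4 without V replicate 1 and 2 without V replicate 2. The median log2FC of the members was -0.32, beside -0.05 for all genes, and -0.09 without S replicate 1. V and S were separate experiments. The study's methods give V a lower temperature than S and still plates in place of shaken flasks, while the labels give 1 temperature for all, so that growth time, culture conditions and experiment cannot be told apart.

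**Figure D3:**
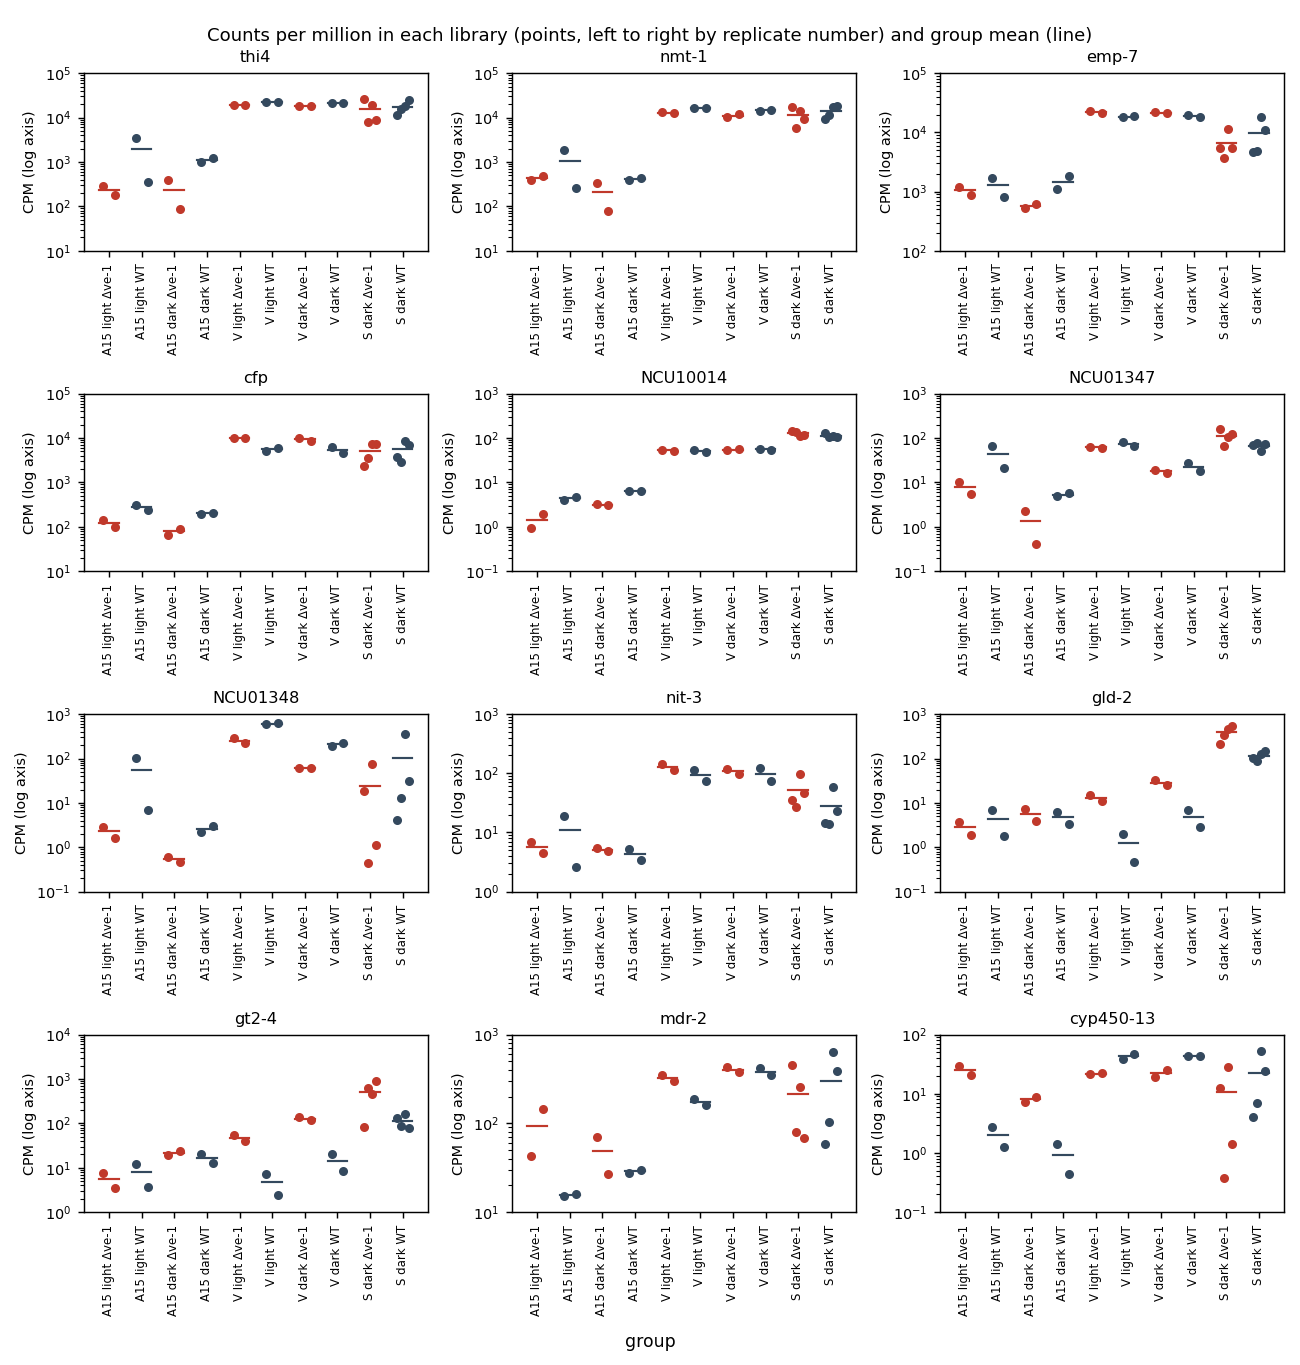
Level of 12 of the genes in every library (points, by replicate number) with group means as lines, in CPM on log axes, groups from A15 to V to S, Δve-1 in red and the wild type in blue-grey. In thi4, nmt-1, emp-7, cfp and NCU10014 every A15 library lies below every V and S library, whereas gld-2 in wild-type V lies as low as in A15.

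In the mutant most of these genes were low in aerial tissue, whether dark or lit. In the dark, Δve-1 A15 was below every Δve-1 S library in 61 of the 70 genes (26% of genes at the level), and in the light in 62 (28.9%). The members held 0.367 and 0.367% of the counts in dark Δve-1 A15 and 0.509 and 0.452% in light Δve-1 A15, against 9.60, 4.51, 9.62 and 6.16% in Δve-1 S. By edgeR, 62 members fell in dark Δve-1 A15 against Δve-1 S and none rose (19.2% and 25.1% of the 8239 genes tested), and 30 of them were DEGs (2.49% of genes). In light Δve-1 A15 against the same S libraries, 63 fell and none rose (20.8% and 24.9% of genes), with 33 DEGs (3.81%). Both comparisons share the S libraries of the mutant. Without S replicate 1, the library that stood apart, 60 fell in dark and 61 in light A15. The median log2FC of the members was -4.33 for dark and -4.28 for light A15, beside 0.10 and 0.04 for all genes.

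In the wild type, light A15 was compared with light V, neither of which was used to choose the genes. By edgeR, 65 members fell and none rose (21.2% and 23.2% of the 8271 genes tested), and 54 were DEGs (3.69%). The median log2FC was -3.54, beside 0.12 for all genes. Light A15 was below both light V libraries in 65 members (26.3% of genes at the level). A15 and V were grown in separate experiments, at different temperatures by the study's methods, and stage, temperature and experiment cannot be told apart. In all 3 comparisons 58 members fell (9.92% of the 8222 genes tested in each). Scaling by library size in place of TMM moved the median of all genes to 0.36, 0.54 and 0.70, and in none of them did that scaling change the direction of the members' median.

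The thiamine genes fell in each comparison. In the mutant, thi4 had 288 and 184 CPM in light A15 and 384 and 88.5 CPM in dark A15, against 26514, 7967, 18817 and 9033 CPM in S. Its log2FC was -6.65 in the light and -6.51 in the dark (edgeR adjusted P = 0.000274 in the dark). The corresponding values of nmt-1 were 402 and 473 CPM in light A15 and 333 and 79.1 CPM in dark A15, against 17084, 5898, 13832 and 9359 CPM in S, and its log2FC was -5.28 in the light and -6.25 in the dark (adjusted P = 0.000138 in the dark). In the wild type, light A15 had a log2FC of -4.16 for thi4 (adjusted P = 0.00199) and -4.58 for nmt-1 (0.000657) against light V. No A15 library overlapped the mycelia in these genes.

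NCU10014 had the lowest adjusted P in the mutant in both conditions. It had 0.928 and 1.96 CPM in light A15 and 3.27 and 3.10 CPM in dark A15, against 144, 139, 109 and 117 CPM in S. The log2FC was -6.95 in the light (edgeR adjusted P = 1.3e-07) and -5.57 ± 0.45 in the dark (SE, adjusted P = 3.97e-07). Next came gld-2, which fell by 7.59 on the log2 scale in the light (adjusted P = 9.37e-07) and by 6.37 in the dark (3.02e-06), then NCU05163 in the light (-4.89, 1.18e-06) and ppy-5 in the dark (-6.94, 5.62e-06). NCU04276 had 7.43 and 8.52 CPM in light A15 and 18.1 and 34.7 CPM in dark A15 of the mutant, against 6438, 6136, 5951 and 7270 CPM in S. Its log2FC of -10.16 in the light was the largest change of a member in that comparison. Between light A15 and light V of the wild type, ppy-5 (-5.47 ± 0.34, adjusted P = 2.4e-06), erg-1 (-3.15, 2.93e-06) and pdx-4 (-4.93, 3.16e-06) had the lowest adjusted P.

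Other metabolic members fell too. For cfp the log2FC was -5.87 in light and -6.15 in dark Δve-1 A15, and -4.92 in wild-type light A15 against V, and all 3 passed the test. For emp-7 it was -3.73 in dark Δve-1 A15 (edgeR adjusted P = 0.00125) and -4.46 in wild-type light A15 against V. The nitrate genes fell in dark Δve-1 A15, with a log2FC of -3.56 for nit-3 (adjusted P = 0.00363), -5.87 for nit-6 (0.0017) and -4.47 for nit-10 (0.00759). They also fell in wild-type light A15 against V (log2FC = -3.73, -3.87 and -4.30). The flavohemoglobin gene fhb-2 fell by 4.52 in dark Δve-1 A15 (7.09e-05), and the sterol genes erg-1, erg-25 and erg-3 fell there too (-5.19, -3.23 and -3.02).

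**Figure D4:**
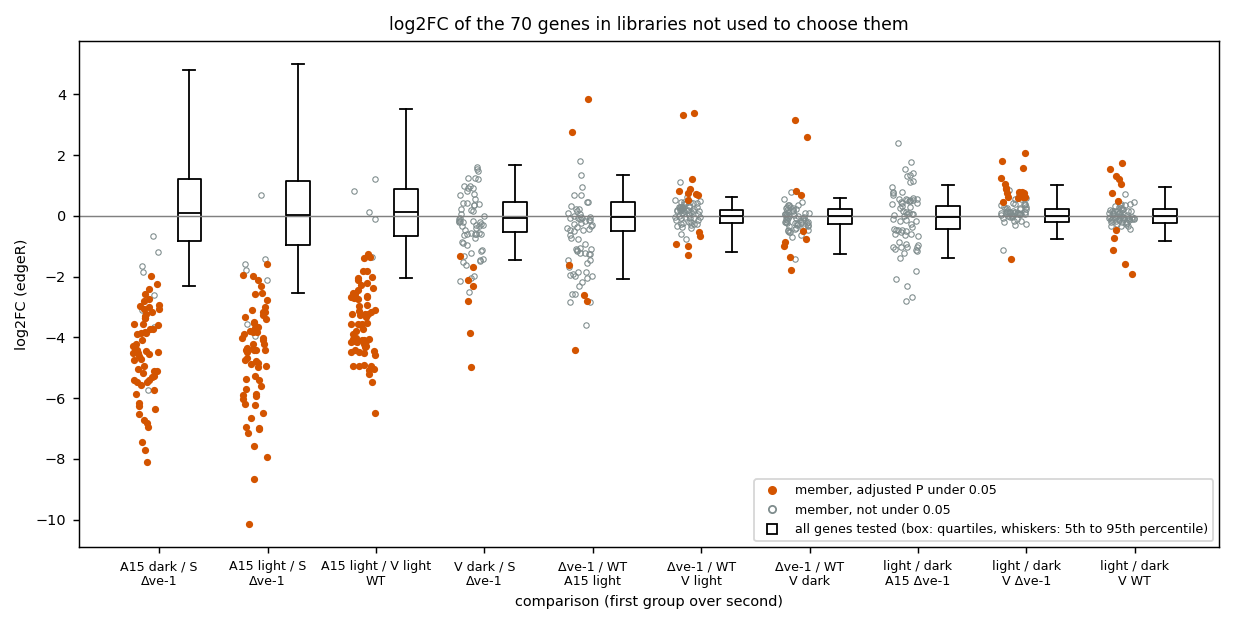
The log2FC of the 70 genes from edgeR in 10 comparisons, filled orange points for an adjusted P under 0.05 and open grey points for the others, beside a box for all genes tested (quartiles, with whiskers at percentiles 5 and 95). In dark Δve-1 A15 over S 62 genes fell, in light 63, and in wild-type light A15 over light V 65, while most points of the strain and light comparisons are open.

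Some members did not pass. In the dark, NCU01348 (log2FC = -5.73, edgeR adjusted P = 0.0605), mdr-2, a transporter of the multidrug resistance kind (-2.60, 0.061), NCU00878 (-3.67, 0.0835), NCU10500 (-1.85, 0.0917), NCU11295 (-3.09, 0.119), sut-5 (-1.18, 0.134), NCU01898 (-1.66, 0.204) and cyp450-13 (-0.67, 0.679) missed the threshold. In several of them the mutant S libraries were far apart. NCU01348 had 18.4, 0.441, 76.6 and 1.13 CPM and cyp450-13 had 12.3, 0.378, 28.5 and 1.40 CPM in Δve-1 S. In wild-type light A15 against V, the 5 genes that missed it were gld-2 (1.23, 0.154), NCU00992 (0.81, 0.189), urf-N (-1.35, 0.211), gt2-4 (0.14, 0.866) and NCU01898 (-0.11, 0.928). Of these, gld-2, NCU00992, gt2-4 and NCU01898 were the genes whose level in wild-type dark V was at most 1/6 of S.

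Leaving out single libraries moved the counts of genes that fell by less than the counts of DEGs. In the dark 54 to 66 members fell and 52 passed in every such fit, in the light 51 to 64 with 51 in every fit, and in wild-type light A15 against V 63 to 65 with 62 in every fit. The number of DEGs was 11 to 33 in the dark, 10 to 35 in the light and 39 to 51 in the wild type. The low counts were those without A15 replicate 1 (13) or 2 (11) in the dark and without A15 replicate 1 (11) or 2 (10) in the light. The markers of conidiating tissue moved the other way, since all 6 of them rose in each of the 3 comparisons. The part of the large eas mRNA share in the levels of the members was not tested beyond the change of scaling.

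Between the strains, members passed the test in both directions in V. In S, which is a description, the ratio of Δve-1 to the wild type had a median of 0.825 and 49 members were lower in the mutant (56% of genes at the level). With wild-type replicates 1 and 2 only, the median was 1.74 and 6 members were lower. The strains did not overlap for gld-2, with 211, 344, 460 and 550 CPM in Δve-1 S against 102, 89.9, 125 and 146 CPM in the wild type. That was also so for NCU04276 and fhb-2, and no share over all genes was taken. In dark V, 6 members fell and 4 rose in Δve-1 by edgeR (6.28% and 3.52% of the 7760 genes tested), and in light V 5 fell and 9 rose (5.88% and 4.41%). The median log2FC was -0.12 for dark and 0.17 for light V. The strain and light comparisons of V share libraries.

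The neighbours gld-2 and gt2-4 had the largest strain effects in V. In dark V, gt2-4 had 136 and 119 CPM in Δve-1 against 20.7 and 8.27 CPM in the wild type, and in light V it had 55.4 and 40.2 CPM against 7.09 and 2.47 CPM. Its log2FC was 3.17 in the dark (edgeR adjusted P = 0.00232) and 3.33 in the light (0.0026). For gld-2 the levels were 32.2 and 24.7 CPM in Δve-1 against 6.82 and 2.80 CPM in the wild type without light, and 15.4 and 10.8 CPM against 2.04 and 0.460 CPM with it, with log2FC of 2.58 (0.00701) and 3.39 (0.00452). The mutant libraries were above the wild-type libraries for both genes in both conditions. NCU01348 went the other way, with 60.4 and 62.1 CPM in dark Δve-1 V against 194 and 225 CPM in the wild type (log2FC = -1.79, adjusted P = 0.000551), and -1.29 in the light (0.0026).

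Smaller strain effects in V were a fall of cyp450-13 (-0.98 in the dark, edgeR adjusted P = 0.0103, and -1.0 in the light, 0.00993) and a rise of cfp (0.81, 0.0374, and 0.82, 0.0342). Leaving out single libraries moved these calls. The number that rose in dark V was 1 without Δve-1 replicate 1 or wild-type replicate 2 and 2 without wild-type replicate 1, and NCU01348, NCU01873, NCU00878, gt2-4 and NCU03634 passed in every fit. In light V, 1 fell and 3 rose without Δve-1 replicate 1, 1 fell and 5 rose without Δve-1 replicate 2, and NCU01348, gt2-4, NCU05163 and gld-2 passed in every fit.

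In light A15, 6 members passed the test between strains. By edgeR 4 fell and 2 rose in Δve-1 (2.9% and 1.75% of the 8193 genes tested), with a median log2FC of -0.57, and 31 members had an unadjusted P under 0.05 (21.3% of genes). Those that fell were gh67-1, an alpha-glucuronidase that trims plant xylan (-2.60, adjusted P = 0.033), NCU07352 (-2.80, 0.0342), NCU05163 (-1.61, 0.0449) and NCU01348 (-4.42, 0.05, just under the threshold). Those that rose were cyp450-13 (3.83, 0.0214) and mdr-2 (2.77, 0.0417). None passed in every fit without 1 library. Without Δve-1 replicate 1, Δve-1 replicate 2 or wild-type replicate 1 none fell, and the number that rose was 0, 0 and 1. Without wild-type replicate 2, 13 fell and 2 rose. The thiamine gene thi4 had 288 and 184 CPM in light Δve-1 A15 against 3491 and 358 CPM in the wild type, where the libraries lay far apart (log2FC = -2.85, adjusted P = 0.123).

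That wild-type pair was uneven in many members. Replicate 1 was above replicate 2 in 57 of the 70 (58.6% of genes at the level). It was above by more than 2-fold in 26, a count not taken over genes at the level. For nit-6 the values were 113 and 6.05 CPM. The summed aerial markers were 52775 CPM in replicate 1 and 128079 CPM in replicate 2, and their part in the difference was not tested. In the dark, the ratio of Δve-1 to wild-type A15, a description, had a median of 0.628, and 52 members were lower in the mutant (68.9% of genes at the level). It ran from 0.172 for NCU04276 to 8.59 for cyp450-13, which had 7.14 and 8.89 CPM in Δve-1 against 1.42 and 0.447 CPM in the wild type. A mean of at most 1/6 of S of the same strain was found for 55 members in light Δve-1 A15 (4.26% of genes at the level), 59 in dark Δve-1 A15 (3.59%) and 49 in light wild-type A15 (1.68%). The wild-type S libraries of the last of these took part in choosing the members.

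Mycelia of both strains were compared after 30 min of light. In wild-type V, 7 rose and 5 fell in the light by edgeR (7.98% and 7.4% of genes), and in Δve-1 V 18 rose and 1 fell (7.07% and 5.73%). NCU01348 in Δve-1 V was the only DEG among them (0.979% of genes rose as DEGs). NCU01347 and NCU01348, tandem neighbours on chromosome V with 1104 bases between them, had low adjusted P in both strains. NCU01348 had 287 and 221 CPM in light against 60.4 and 62.1 CPM in dark Δve-1 V, and 607 and 618 CPM in light against 194 and 225 CPM in dark wild-type V. Its log2FC was 2.05 (adjusted P = 0.000137) in Δve-1 and 1.56 (0.000484) in the wild type, and that of NCU01347 was 1.82 (0.000144) and 1.75 (0.000163). Light and dark libraries did not overlap for NCU01348 in either strain. The vitamin B6 gene pdx-1 rose as well, by 1.05 (0.00218) in Δve-1 and 1.31 (0.000694) in the wild type.

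Of the genes that fell in the light, gt2-4 did so in Δve-1 (-1.42, edgeR adjusted P = 0.0433) and in the wild type (-1.58, 0.0453). In the wild type mdr-2 (-1.12, 0.000635) and gld-2 (-1.93, 0.0434) fell as well. NCU01347, NCU01348, NCU01873 and pdx-1 passed in every fit without 1 library in both strains. In the wild type 1 member fell without dark replicate 1 or light replicate 2, and in Δve-1 8 to 10 rose and none fell in such fits. Whether the strains responded unequally to light was tested as an interaction, and no member passed by edgeR or DESeq2, while 7 had an unadjusted P under 0.05 (2.44% of genes). The log2 of the interaction was above 0 in 68 of 70 members, against 52.1% of all genes. Its median of 0.22 ran from 0.08 to 0.35 without single libraries. The log2 of the interaction was below 0 in 2 members with all libraries and in 5 to 22 without single libraries. The 22 were found without light Δve-1 replicate 1. In A15 of the mutant no member changed with light by edgeR and 16 had an unadjusted P under 0.05 (12.3% of genes), and DESeq2 called 2 that fell and 1 that rose. Without dark Δve-1 replicate 1, edgeR called 7 that fell and 3 that rose. In wild-type A15, a description, the mean in light was above that in dark in 54 members (61.9% of genes at the level), but replicate 2 alone was above the dark mean in 32 (53.6%). NCU01348 had 104 and 6.97 CPM in light against 2.22 and 3.07 CPM in dark A15, and NCU01347 had 65.6 and 21.7 CPM against 4.88 and 5.81 CPM. For both genes the light libraries were above the dark ones, and for nit-6, with 113 and 6.05 CPM in light against 13.3 and 9.78 CPM in dark, they lay on both sides of them.

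The lists of pathway genes held others that fell beside the members. The counts and medians below include the members, which were chosen for low levels in dark wild-type A15. Of all genes tested, 19.2% fell in dark and 20.8% in light Δve-1 A15 against S, and 21.2% in wild-type light A15 against V. The shares that rose were 25.1, 24.9 and 23.2%. Of 16 genes of glycolysis and ethanol fermentation, 5 of them members, 12 fell and 3 rose in dark Δve-1 A15 against S, in light Δve-1 A15 against S and in wild-type light A15 against V, with a median log2FC of -2.60, -2.33 and -2.11. Of 13 vitamin synthesis genes, 4 of them members, 11 fell and none rose in each comparison (medians -3.45, -3.02 and -2.28). Of 13 ergosterol genes, 3 of them members, 11, 11 and 9 fell (medians -2.26, -3.46 and -1.42), and 1 rose, in the wild-type comparison. Of 9 genes of nitrate assimilation and its regulators, 3 of them members, 5, 4 and 6 fell (medians -1.43, -1.0 and -1.36). All 3 nitrate members were among those that fell in each comparison. Of 7 genes of flavohemoglobins, alternative oxidase and NADPH oxidase, 2 of them members, 5 fell in each (medians -3.13, -3.40 and -2.01).

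Lists with no member also held genes that fell, and so did the mitochondrial list, whose 1 member was urf-N. The shares of all genes that fell and rose in the same comparisons are those given above. Of 63 genes of amino acid synthesis 42, 40 and 48 fell and 3, 4 and 2 rose, with medians of -1.66, -1.36 and -1.87. Of 8 purine synthesis genes 5, 4 and 6 fell, and of 7 ribosomal protein genes 6, 7 and 7. Of 27, 27 and 26 transcripts of the mitochondrial genome tested, 8, 1 and none fell and 1, 2 and 5 rose. Among 3 housekeeping genes 2, 2 and 1 fell. Between V and S of the mutant, 2.77% of all genes tested fell and 4.71% rose. There no gene passed in the glycolysis, ergosterol, nitrate, vitamin, purine, ribosomal or housekeeping list, while 1 fell and 2 rose in amino acid synthesis. The mitochondrial gene that fell was the member urf-N, and 2 genes fell in each of the flavohemoglobin list and the aerial markers.

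The genes were spread over the genome. They lay on chromosomes I (18), II (6), III (7), IV (10), V (13), VI (3) and VII (12), with urf-N on the mitochondrial genome, and chromosome VII held 3.33% of its genes at the level as members against 1.76% over all chromosomes. Adjacent pairs were NCU07352 and gh67-1, which are divergent with 201 bases between them, NCU01347 and NCU01348, and NCU02194 and cfp, divergent with 584 bases between them. Of the members, 23 overlapped another annotated gene, 20 of them one on the opposite strand, and the counting assumed opposing-strand reads. NCU03634 overlaps NCU03635, which had 4168 CPM in wild-type S, by 108 bases, so that its level is uncertain.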

How the data were processed

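The authors mapped single-end reads of 100 nt to the NC12 assembly with TopHat2 (2.11 in the submitters' processing notes, which also name FastQC) and took gene counts over exons in SeqMonk, taking reads as opposing-strand. The deposited values were raw counts of 9758 genes in 24 libraries, which were checked to be whole numbers. Gene symbols came from the study or from RefSeq, which matched 9757 identifiers. Members were chosen on CPM, the count over the library total. Counts were tested with edgeR 4.0.16 (quasi-likelihood, TMM scaling, limma 3.58.1, R 4.3.3) after filterByExpr at a minimum count of 10, with Benjamini-Hochberg adjustment over all genes tested, on the libraries of S and A15, V and A15, dark V and S, V, or A15. An adjusted P under 0.05 was called, and a DEG needed an absolute log2FC of at least 2 and an adjusted P under 0.001. DESeq2 1.42.0, other scalings and filters, all libraries, only the groups compared, replicate blocks and each library left out were tried. The pipeline was tested on simulated data. Genes were named by their rank in level, ratio, adjusted P, spread or V to S ratio, or by list, and NCU02194, NCU03634, NCU06815, NCU09020, NCU10500 and NCU11295 were named after their values were seen. The members and lists were chosen with earlier results of these data known.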

Additional observations from a re-analysis of the deposited data

Results flagged for a closer look

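Over the S libraries, 7 of 140 groups of values (70 genes in each strain) had a library far from the other 3 by Dixon's test, and chance gives about 1 in 20, or 7 here. In the wild type, replicate 3 was high for NCU01348 (355 CPM), NCU09683 (320 CPM) and NCU11356 (247 CPM), and replicate 1 was high for NCU10014 (131 CPM). In Δve-1, replicate 3 was high for NCU02194 (272 CPM), and replicate 1, the library that stood apart, was low for sut-5 (581 CPM) and NCU06815 (77.1 CPM).

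The strain effect had opposite signs in light A15 and light V for 6 genes that passed the test in at least 1 of these stages. In each stage every mutant library lay on one side of both wild-type libraries. Other members, among them erg-25, ace-8 and erg-3, had such a reversal but passed in neither stage. The difference between the stages was not tested. The log2FC of Δve-1 over the wild type was 3.83 in A15 and -1.0 in V for cyp450-13. It was 1.81 and -0.92 for NCU00878, -1.61 and 1.22 for NCU05163, and -1.85 and 0.68 for NCU09020. For NCU02194 it was -1.10 and 0.54, and for cfp -1.06 and 0.82. By edgeR, cyp450-13 and NCU05163 passed the test in both stages. The other 4 passed it in V and missed it in A15 (adjusted P = 0.0693 for NCU00878, 0.0673 for NCU09020, 0.0831 for NCU02194 and 0.161 for cfp).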

How the results depend on the processing

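The members depend on wild-type S replicates 3 and 4, on the scaling and on the fold threshold. With TMM-scaled CPM, 103 genes met the rule, and all 70 members were among them. With thresholds of 1/10 and 1/4, 35 and 116 genes met the rule, and 53 to 80 genes met it when single libraries were left out. With wild-type S replicates 1 and 2 only, a choice made after seeing the data, 36 genes met it, 6 members were lower in Δve-1 S, and the median ratio was 0.237 for light wild-type A15 to S, 1.74 for Δve-1 to wild-type S and 1.57 for V to S. The median coefficient of variation was then 18.6%, and 23.8% with replicates 3 and 4 only. Without single wild-type S libraries it was 55.9 to 71.1%, and 30 to 52 members were lower in Δve-1 S. Genes under 20 CPM in S are not covered, and 2 libraries in a group limit every test of A15 and V. The causes of the changes below were not tested.

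With DESeq2, DEGs that fell were 59 in dark and 57 in light Δve-1 A15 against S, 4 in Δve-1 V against S (where 13 fell and 1 rose) and 4 between strains in light A15, where 2 DEGs rose and 18 members fell. Between strains, 1 DEG rose in dark V and 2 in light V. With light, 2 fell and 1 rose in Δve-1 A15, none fell in Δve-1 V and 3 fell in wild-type V. With all 24 libraries in 1 fit, DEGs that fell were 54, 51, 22 (wild-type light A15 against V) and 2 (Δve-1 V against S, where 1 rose). Between strains, 9 fell and 0 rose in light A15, 0 fell and 0 rose in dark V, and 0 fell and 1 rose in light V. With light, 1 fell in Δve-1 A15, 0 fell and 0 rose in V of either strain, and the DEG of Δve-1 V was lost (0).

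With only the groups compared, DEGs that fell were 14 in dark Δve-1 A15 and 0 in wild-type light A15 against V, 4 members fell in Δve-1 V against S, 12 fell between strains in light A15, 4 rose in light V, 1 DEG rose in dark V, and with light 2 fell in Δve-1 V and 1 in wild-type V. With no filter, 1 DEG rose between strains in dark V and 1 in light V. With library size only, the median log2FC was -2.96 in wild-type light A15 against V, where 1 rose, and -3.74 in light Δve-1 A15, and with light 0 fell in Δve-1 V and 2 in wild-type V. NCU01898 then had 0.50 in wild-type light A15 against V.

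The replicate numbers do not mark a shared batch in the labels. Deviations of same-numbered libraries correlated at 0.457 and 0.647 between strains in dark and light V, at 0.589 and 0.538 between light and dark in wild-type and Δve-1 V, at 0.150 between strains in light A15, at 0.202 between light and dark in Δve-1 A15, and between -0.400 and 0.741 in the pairs of S. Groups of A15 and V hold only 2 pairs, so the numbers were taken as names. With a block by title number, the median log2FC was -3.66 and -3.71 in dark and light Δve-1 A15 and 0.14 in Δve-1 V against S, where 5 fell and 9 rose (5.38% and 7.66% of all genes). In wild-type light A15 against V 1 rose. Between strains 18 fell, 9 rose (1122 and 866 of the 7760 genes) and 2 DEGs rose in dark V, 8 fell, 19 rose (1029 and 845 genes) and 2 DEGs rose in light V, and 1 rose in light A15. With light, 2 fell and 26 rose in Δve-1 V (871 and 962 genes), and 8 fell and 14 rose in wild-type V (1016 and 1009 genes). With a block by code number, which could not be fitted for wild-type light A15 against V or for light in Δve-1 A15, the median was -3.65 in dark Δve-1 A15 and 7 fell between strains in light A15. The block moved cyp450-13 in dark Δve-1 A15 to 0.97 (title) and 1.04 (code). The numbers of wild-type light A15 and V correlated at -0.158, and a block with them crossed, added after seeing the data, gave 65 that fell and 51 DEGs.

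Without single libraries, 0 to 1 member rose in wild-type light A15 against V (39 to 51 DEGs fell, median -3.70 to -3.20), and 2 to 8 fell in Δve-1 V against S. DEGs that fell were 11 to 33 in dark and 10 to 35 in light Δve-1 A15. With light, 0 to 7 fell and 0 to 3 rose in Δve-1 A15, 0 fell, 8 to 10 rose and 0 to 1 DEG rose in Δve-1 V, and 1 to 5 fell in wild-type V. Without single light libraries, 32 to 55 members were higher in light than in dark wild-type A15, a choice made after seeing the data. Between strains, 0 to 13 fell and 0 to 2 rose in light A15 (median -0.93 to -0.21), 1 to 3 rose in dark V, and 1 to 5 fell and 3 to 9 rose in light V. In wild-type light A15 against V the log2FC ran from -0.065 to 1.35 for NCU00992 (lowest without A15 replicate 2), from -0.53 to 0.21 for NCU01898 (above 0 without A15 replicate 2, and 0.05 without V replicate 2), from -0.86 to 0.99 for gt2-4 (below 0 without A15 replicate 1, and -0.40 without V replicate 2) and from -2.20 to 1.05 for urf-N (above 0 without V replicate 1). In dark Δve-1 A15 it ran from -1.10 to 0.34 for cyp450-13 (above 0 without S replicate 3). With all libraries none of these genes passed the test there.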
